A study of Mus musculus with 6 samples.

Results

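The control columns of the study's deposited tables were set against each other. Both columns describe untreated mouse AE9a leukemia cells, one from the table made for CBD and one from the table made for 4-hydroxytamoxifen (4-OHT), and they are called here the CBD-side control and the 4-OHT-side control. Of 21881 genes listed in each table, 10867 had test status OK in both, and 10002 of those reached 1 FPKM (sequenced fragments per kilobase of transcript, corrected for library size) in at least 1 control column and were compared. The genes nearest that limit had a higher control value of 1.001 FPKM just inside and 0.998 FPKM just outside, and 865 genes fell below it. Every ratio below is log2 of the CBD-side over the 4-OHT-side control, after adding 0.1 FPKM to each, so a positive value is higher on the CBD side.

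The cells are a mouse leukemia driven by AE9a, a shortened AML1-ETO fusion protein, that carries Id1 alleles with loxP sites and CreER, the tamoxifen-activated recombinase, on a C57/B6X129SV strain background. The labels name 6 samples: 2 untreated controls, 2 kept for 16 h in 15 µM CBD, named in the design text as an inhibitor of Id1, and 2 kept for 48 h in 0.1 µM 4-OHT. One control is described under the CBD comparison and the other under the 4-OHT comparison, no vehicle, clone or passage is named for either, and all groups carry the same alleles. Each table gives 1 FPKM value per group and how many libraries stand behind it is not stated, so the contrast of the controls has no replicate spread and no test. "Higher" and "lower" below describe these columns, and a difference between cells and one between libraries or tables cannot be told apart.

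Cells that run short of amino acids or fold proteins poorly phosphorylate the translation factor eIF2α, which slows protein synthesis and favours translation of ATF4. ATF4 and its partner CHOP (Ddit3) switch on amino acid transporters and enzymes, a set called the integrated stress response. Growth factor signals through ERK switch on immediate early genes such as Egr1 and Fos within minutes, and HSF1 keeps up the cytosolic chaperones.

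The controls differed in their stress and signalling genes while most genes lay close together. The median log2 ratio of all compared genes was −0.01, with the middle 50% of genes between −0.37 and 0.38, and 88.4% lay within 2-fold. At least 2-fold higher in the CBD-side control were 746 genes (7.46%), and at least 2-fold lower were 413 (4.13%). The share past 2-fold in either direction was 28.2% of genes with a mean under 3 FPKM and 6.29% of those at 100 FPKM or more, so calls were more frequent among low values. Of 20 reference genes (housekeeping genes) none was past 2-fold, with ratios from −0.86 to 0.80 and a median of −0.07.

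**Figure D1:**
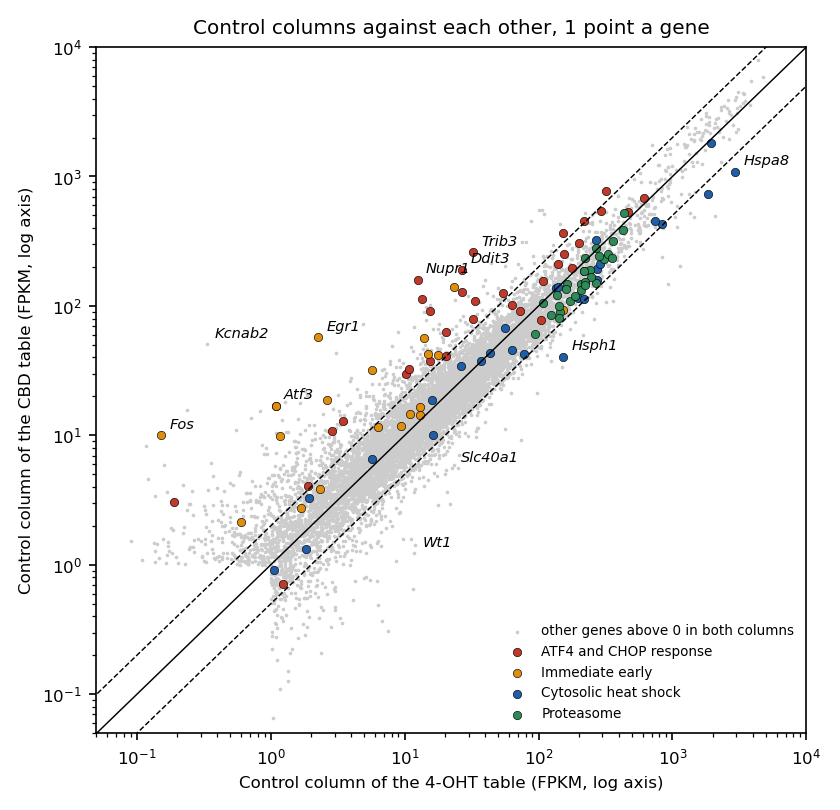
FPKM of each compared gene above 0 in both columns, 4-OHT-side control on the x axis and CBD-side control on the y axis, both log axes, with the solid line at equality and dashed lines at 2-fold. Genes of the ATF4 and immediate early lists lie mostly above the line, and Hspa8, Hsph1, Slc40a1 and Wt1 lie below it.

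The ATF4 and CHOP genes had the largest share of higher genes among the 41 lists. Of 39 listed genes 34 passed the expression limit, and 22 of those (64.7%, against 7.46% of all compared genes) were at least 2-fold higher in the CBD-side control and 0 at least 2-fold lower. Their median ratio was 1.27, against −0.01 over all compared genes. Keeping genes at 1 FPKM or more in both controls left 32, of which 21 were 2-fold higher, with the same median of 1.27. In the CBD column over the 4-OHT column, which uses neither control, the median of the same 34 genes was 1.17, with 19 of them 2-fold higher (background 12.3%).

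For the 7 of these genes with a C/EBP-ATF element before the start site, the DNA around it is shown; the element is the composite site that ATF4 and C/EBP factors bind. The element was searched as TGATGNAAN on both strands from 250 bases before to 50 bases after the start, in promoters from RefSeq on GRCm38.p6, a later build than the mm9 of the tables. A match was found in 8 of 28 promoters of the list (28.6%), against 4.5% of 27025 promoters in the RefSeq table, 2.67% of the 7043 compared genes with a promoter there, 7.49% of 494 genes that were 2-fold higher and 3.42% of 263 that were 2-fold lower. Each sequence runs 5′ to 3′ along the gene, with the match in capitals:
Nupr1, chr7:126625553-126625601, - strand: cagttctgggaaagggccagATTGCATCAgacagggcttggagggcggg
Atf3, chr1:191183416-191183464, - strand: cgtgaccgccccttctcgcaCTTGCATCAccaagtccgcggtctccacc
Pycr1, chr11:120643823-120643871, - strand: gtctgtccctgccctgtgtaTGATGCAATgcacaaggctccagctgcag
Chac1, chr2:119351028-119351076, + strand: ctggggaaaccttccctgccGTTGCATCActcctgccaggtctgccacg
Slc7a11, chr3:50443633-50443681, - strand: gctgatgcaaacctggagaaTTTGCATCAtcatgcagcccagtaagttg
Asns, chr6:7693210-7693252, - strand: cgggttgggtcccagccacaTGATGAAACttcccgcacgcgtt
Pck2, chr14:55540142-55540190, + strand: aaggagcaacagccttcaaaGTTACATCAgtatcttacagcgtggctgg
The first 5 genes had ratios of 3.66, 3.85, 1.88, 1.55 and 1.28, and Asns and Pck2, with a match as well, had 0.16 and 0.68. Slc7a11 holds another match in the opposite orientation, left in lower case in its stretch, and the match of Trib3 lies after its start and is not shown. A match is a description of the letters and says nothing of binding in these cells.

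The transcription factors and their partners had the highest median of the roles in the list. Roles were grouped after values were seen. This role holds the markers Trib3, Ddit3 and Nupr1, so its rank is a description only. Trib3 is a pseudokinase that dampens ATF4 and AKT, and lies at 152163161 to 152169796 on chromosome 2 in mm9. Its values were 260 FPKM in the CBD-side control and 32.5 in the 4-OHT-side control, a log2 ratio of 2.998. Its treated columns held 309 FPKM with CBD and 39.5 with 4-OHT, so both columns of the CBD table were high and both of the 4-OHT table were low.

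Ddit3, which encodes CHOP, held 191 FPKM in the CBD-side and 26.9 in the 4-OHT-side control, with 127 in the CBD and 37.7 in the 4-OHT column. Its log2 ratio was 2.82. Nupr1, a small stress-induced chromatin protein, held 160 against 12.5 FPKM, with 73.8 in the CBD and 29.8 in the 4-OHT column. Its ratio was 3.66, and its treated columns lay between the controls.

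Atf3, a factor induced by ATF4 and also an immediate early gene, held 17.01 FPKM against 1.09, with 8.52 with CBD and 3.12 with 4-OHT, a ratio of 3.85. Atf4 itself held 775 against 318 FPKM, with 781 and 401 in the CBD and 4-OHT columns, a ratio of 1.29. All 8 factors and partners that passed the limit, Atf5, Cebpb and Cebpg among them, were past 2-fold, with a median of 2.53.

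Genes that act on mTORC1, eIF2α and glutathione followed, with 4 of 4 past 2-fold and a median of 2.10. Ddit4, an inhibitor of mTORC1 also listed under hypoxia and glucocorticoid targets, held 113 against 13.4 FPKM, with 106 with CBD and 44.8 with 4-OHT, a ratio of 3.07. Ppp1r15a, the phosphatase subunit that reverses eIF2α phosphorylation, held 92.1 against 15.4 FPKM, a ratio of 2.58. Sesn2, which restrains mTORC1 when leucine is low, held 63.0 against 20.3 FPKM and Chac1, which degrades glutathione, 30.1 against 10.2.

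Amino acid transporters and enzymes were less far apart. Of 8 transporters 5 were past 2-fold, with a median of 1.13: Slc7a11, the cystine importer, held 37.4 against 15.4 FPKM, and Slc7a5, the leucine importer, 452 against 219. Of 12 enzymes of amino acid and one-carbon metabolism 4 were past 2-fold, with a median of 0.65. Aldh1l2, a mitochondrial folate enzyme, held 3.04 against 0.190 FPKM, with 6.02 with CBD and 0.278 with 4-OHT, and its low value on the 4-OHT side makes the ratio of 3.44 depend on the added 0.1 FPKM.

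Enzymes of asparagine and serine synthesis, textbook ATF4 targets, were within 2-fold between the controls. Asns, asparagine synthetase, held 680 against 608 FPKM, a ratio of 0.16. Phgdh, the first enzyme of serine synthesis, held 545 against 294 FPKM (0.89), Psat1 532 against 463 (0.20) and Psph 78.0 against 105 (−0.42). The 20 cytosolic aminoacyl-tRNA synthetases, which load amino acids on tRNAs and are also ATF4 targets, had 0 members past 2-fold and a median of 0.33.

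The controls also serve the authors' own tests, which share these columns and so are given only as values. In the authors' deposited table for CBD, Trib3 did not pass (q = 0.596) and Nupr1 fell (q = 0.0189). In the authors' deposited table for 4-OHT, Trib3 (q = 6.58e-05), Ddit3 (q = 2.94e-07) and Atf3 (q = 1.29e-10) rose. Of the 34 compared ATF4 genes, 2 rose and 4 fell at q under 0.05 in the authors' deposited table for CBD (background 18.4% and 7.74% of 13751 genes), and 13 rose and 7 fell in that for 4-OHT (27.2% and 16.9% of 11232).

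**Figure D2:**
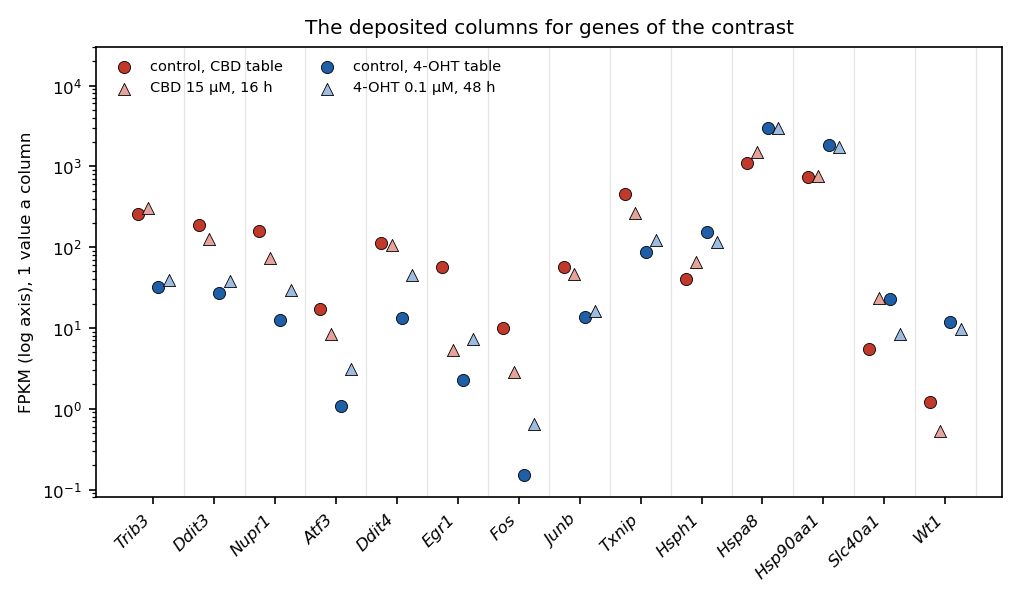
FPKM (log axis) of 14 genes in the 4 deposited columns, 1 value a column, circles for controls and triangles for treated cells, red shades for the CBD table and blue for the 4-OHT table. For Trib3, Ddit3 and Nupr1 both red points lie above both blue points, while for Egr1 the CBD-side control lies above the other 3.

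Chaperones of the endoplasmic reticulum did not stand with the ATF4 genes. Of 24 compared, 2 were at least 2-fold higher (8.33%, near the 7.46% over all genes) and the median was −0.33. Those 2 were Herpud1, which works in the removal of misfolded proteins, at 203 against 56.5 FPKM (ratio 1.84), and Dnajb9, a co-chaperone of BiP, at 17.6 against 7.49 (1.23). Hspa5, which encodes BiP, held 405 against 340 FPKM (0.25), and Hsp90b1, the endoplasmic reticulum HSP90, 122 against 189 (−0.63).

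Cytosolic chaperones had a median below 0, with most members within 2-fold. Of 28 listed heat shock genes 26 were compared, 17 had a ratio below 0, 3 were at least 2-fold lower (11.5%, against 4.13% of all genes) and 0 higher, and the median was −0.44. Hsph1, the HSP110 nucleotide exchange factor, on chromosome 5 from 150419420 to 150438890 in mm9, held 40.7 FPKM against 152.6, with 65.3 with CBD and 115 with 4-OHT, a ratio of −1.91. In the authors' deposited tables Hsph1 rose with CBD (q = 0.0290) and fell with 4-OHT (q = 2.08e-11), so the treated columns lay between the controls.

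The other 2 genes past 2-fold were of the HSP70 and HSP90 machines. Hspa8, the constitutive HSP70, held 1089 FPKM against 2943, with 1519 and 2959 in the CBD and 4-OHT columns, a ratio of −1.43. Hsp90aa1, the inducible HSP90, held 738 against 1828 FPKM, a ratio of −1.31. Of 10 HSP90 proteins and co-chaperones 9 had a ratio below 0, with a median of −0.59, while 3 of 4 HSP40 proteins lay above 0, with a median of 0.11. Of the mitochondrial chaperones, Hspd1, the HSP60, held 433 against 842 FPKM (−0.96), Hspe1, its partner, 449 against 740 (−0.72) and Hspa9, the HSP70, 324 against 266 (0.28).

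The strictly inducible HSP70 genes were near the limit of the comparison. Hspa1a held 0.908 against 1.05 FPKM and Hspa1b 1.32 against 1.82. These are near-identical copies between which reads cannot be split with certainty. The core of the heat shock element, searched as TTCNNGAA on both strands, lay in 6 of 20 promoters of the list (against 9.6% of the RefSeq promoters), and its other arrangement, GAANNTTC, in 10 of 20 (against 9.04%). The stretch of Hsph1 is shown as that of the most different gene, with the match in capitals:
Hsph1, chr5:149636342-149636389, - strand: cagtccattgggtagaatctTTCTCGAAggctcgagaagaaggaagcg

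Proteasome subunits leaned the same way without passing 2-fold. Of 29 compared, 26 had a ratio below 0 and 0 were past 2-fold, with a median of −0.43. MYC targets of ribosome biogenesis had 29 of 30 ratios below 0, a median of −0.42 and 1 gene past 2-fold: Odc1, the first enzyme of polyamine synthesis, at 161 against 369 FPKM (−1.20). Myc itself held 93.5 against 154 FPKM (−0.71). Cytosolic ribosomal protein genes leaned the other way, with 34 of 40 ratios above 0, a median of 0.34 and 1 gene 2-fold lower, Rps23; genes of this family have many near-identical copies.

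Immediate early genes were higher in the CBD-side control. Of 26 listed genes 19 were compared, 11 of them (57.9%, against 7.46% of all genes) were at least 2-fold higher and 0 lower, and the median was 1.51. With 1 FPKM or more in both controls, 9 of 17 were 2-fold higher and the median was 1.22. Egr1, a zinc finger factor induced by ERK and SRF, held 57.6 FPKM in the CBD-side and 2.26 in the 4-OHT-side control, with 5.28 with CBD and 7.26 with 4-OHT, a ratio of 4.61. The CBD-side control was thus the only high column, unlike for Trib3.

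The authors' deposited tables, which share these columns, give Egr1 as fallen with CBD (q = 3.83e-08) and as risen with 4-OHT (q listed at 0). Fos, the AP-1 subunit, held 10.01 FPKM against 0.151, with 2.84 and 0.641 in the CBD and 4-OHT columns, a ratio of 5.33 that depends on the low 4-OHT-side value. Nr4a1, a nuclear receptor induced by many signals, held 9.87 against 1.17 FPKM, with 2.01 and 3.13 in the treated columns, a ratio of 2.97. In these genes too the CBD-side control was the highest of the 4 columns.

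Other members were high in both columns of the CBD table. Junb, an AP-1 subunit, held 56.7 against 13.8 FPKM, with 46.0 and 16.4 in the CBD and 4-OHT columns. Jund held 32.0 against 5.75 FPKM, with 31.5 and 7.53. Over the list the CBD column was 2-fold above the 4-OHT column in 5 genes and 2-fold below in 1, with a median of 0.17, and Srf (ratio 0.14) and Myc were within 2-fold between the controls.

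The serum response element, the CArG box that SRF binds, lay in 2 of 15 promoters of the list (13.3%, against 1.81% of the RefSeq promoters). These were the promoters of Zfp36 and Srf. List genes without a RefSeq promoter, and DNA further upstream than the promoter stretch, were not searched. The count therefore does not show that other genes of the list, Egr1 and Fos among them, lack a CArG box. Zfp36, which encodes an RNA-binding protein that destabilises cytokine mRNAs, held 18.8 against 2.63 FPKM, with 8.74 and 4.35 in the treated columns, a ratio of 2.79. Its stretch is shown, with the CArG box in capitals:
Zfp36, chr7:28379257-28379306, - strand: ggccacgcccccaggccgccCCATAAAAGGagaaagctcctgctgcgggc

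Among genes that feed back on ERK, and targets of NF-kB and STAT5, some members were higher in the same column and most were within 2-fold. Of 11 ERK feedback genes 4 were 2-fold higher (36.4%, against 7.46% of all compared genes) and 0 lower, and with 1 FPKM or more in both controls 2 of 9. Dusp1 and Dusp6, phosphatases that switch off MAP kinases, held 8.40 against 0.859 and 11.1 against 2.56 FPKM. Spry2, an inhibitor of receptor signalling, held 2.84 against 0.316 and Phlda1, a pleckstrin homology protein, 43.3 against 21.0. Of 15 NF-kB genes 6 were 2-fold higher (40.0%, against 7.46%), or 5 of 14 with 1 FPKM or more in both controls, among them the cytokine gene Tnf at 7.15 against 0.887 FPKM, Cxcl2, a neutrophil chemokine, at 5.88 against 1.23, and Relb, an NF-kB subunit, at 8.51 against 2.01.

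Of 16 STAT5 and cytokine feedback genes 6 were 2-fold higher (37.5%, against 7.46%), or 5 of 15 with 1 FPKM or more in both controls. The 6 include the targeted gene Id1, and Cdkn1a, which is also counted among the p53 targets and the CDK inhibitors. Lif, a cytokine, held 4.27 against 0.496 FPKM, Osm, another cytokine of that family, 35.5 against 13.02, and Pim1, a survival kinase, 156 against 63.7. No gene of the ERK, NF-kB or STAT5 lists was 2-fold lower.

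**Figure D3:**
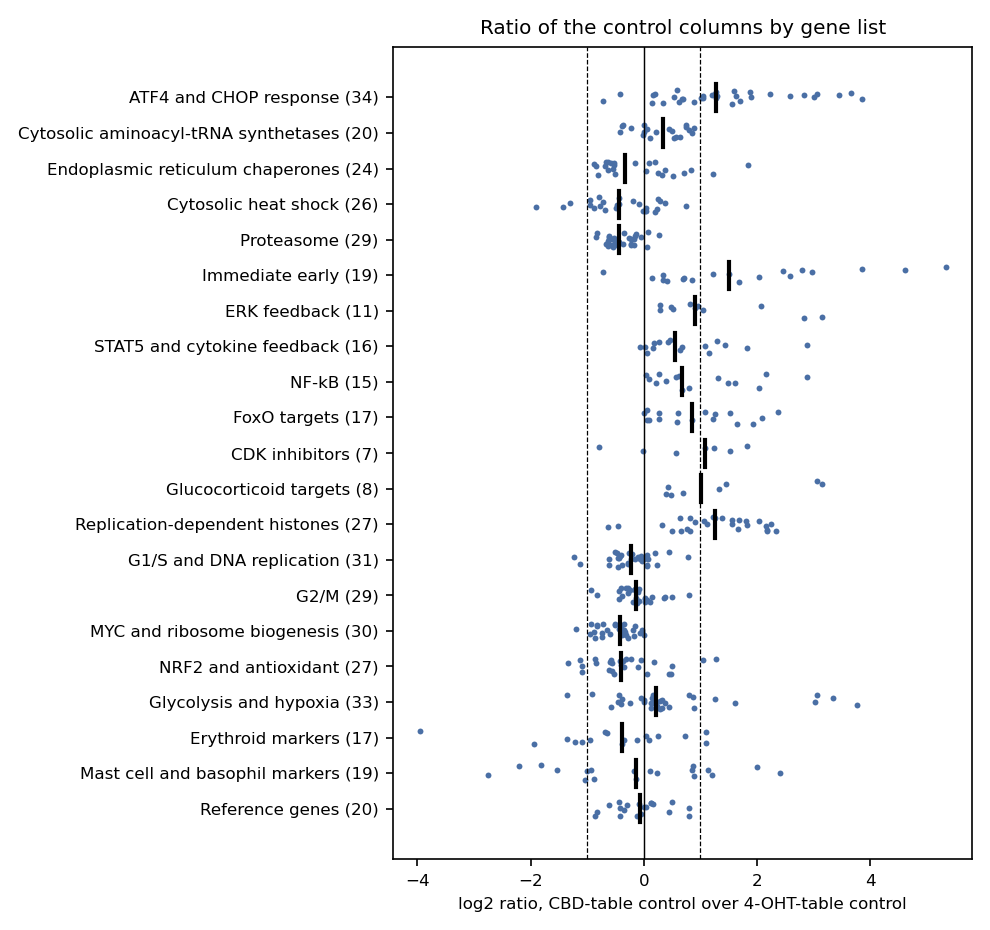
Log2 ratio of the controls for the compared genes of 21 lists, 1 point a gene, with the number compared in brackets, a black bar at the list median and dashed lines at 2-fold. The ATF4, immediate early and histone medians lie above 1, and the heat shock, proteasome and ribosome biogenesis medians lie near −0.4.

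FoxO targets and inhibitors of cyclin-dependent kinases (CDKs), the first known to rise when AKT signalling is low and the second to slow division, had medians above 0. Of 17 FoxO targets 8 were 2-fold higher (47.1%, against 7.46% of all compared genes) and 0 lower, with a median of 0.85, and with 1 FPKM or more in both controls 7 of 16, with a median of 0.73. Txnip, which limits glucose uptake, held 455 FPKM against 88.1, with 266 with CBD and 122 with 4-OHT, a ratio of 2.37. Ccng2, an atypical cyclin of resting cells, held 20.04 against 5.19 FPKM, with 23.1 and 18.9 in the treated columns, so its 4-OHT-side control alone was low.

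The FoxO site, searched as GTAAACA on both strands, lay in 3 of 15 promoters of the list (against 4.05% of the RefSeq promoters). It lay in 2.88% of compared genes with a promoter and in 4.45% of those 2-fold higher. The stretch of the most different of the 3 list genes with a site is shown with the match in capitals:
Txnip, chr3:96557816-96557862, + strand: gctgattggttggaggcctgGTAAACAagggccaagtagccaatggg
Pik3ip1, an inhibitor of PI3 kinase, held 2.15 against 0.428 FPKM and Gadd45a, a growth arrest gene, 25.5 against 8.08.

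Of 7 CDK inhibitor genes 4 were 2-fold higher (57.1%, against 7.46%), with a median of 1.09, and all 7 were at 1 FPKM or more in both controls. Cdkn1a, which encodes p21, held 50.3 against 14.2 FPKM, with 83.0 and 26.1 in the CBD and 4-OHT columns. Cdkn2d (p19) held 56.1 against 19.5, Cdkn1b (p27) 25.7 against 12.1 and Cdkn2b (p15) 4.54 against 1.86 FPKM.

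Genes of the cell cycle itself lay close together. Of 29 G2 and mitosis genes 0 were past 2-fold, with a median of −0.14. Of 31 genes of the G1/S step and replication 2 were 2-fold lower (6.45%, against 4.13% of all compared genes), with a median of −0.22. Those were Ccne1 and Ccne2, the cyclins that start S phase, at 7.56 against 17.9 and 10.7 against 23.7 FPKM.

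Replication-dependent histone genes, whose mRNAs end in a stem-loop in place of a poly(A) tail, were higher in the CBD-side control. Of 27 compared 17 were 2-fold higher (63.0%, against 7.46%) and 0 lower, with a median of 1.25, and with 1 FPKM or more in both controls 15 of 25, with a median of 1.21. Hist1h3e held 5.84 against 1.08 FPKM, with 2.83 and 1.35 in the CBD and 4-OHT columns, and Hist2h4 held 10.5 against 2.13. Members of these clusters are near-identical to each other, so reads may be split between them, and the labels do not say how RNA was selected.

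Apoptosis and p53 genes were mixed. Of 18 p53 targets 5 were 2-fold higher (27.8%, against 7.46% of all compared genes) and 1 lower (5.56%, against 4.13%). Their median was 0.05. Cdkn1a, Gadd45a and Sesn2, among the higher p53 targets, also belong to other lists given here. Of 16 BCL2 family genes 4 were higher (25%, against 7.46%), with a median of 0.16. With 1 FPKM or more in both controls 4 of 16 p53 targets and 2 of 14 BCL2 family genes were higher, the latter with a median of −0.06. The death genes Bbc3, at 19.5 against 2.72 FPKM, and Bmf, at 2.64 against 0.620, were among the higher ones, and so was Bok, at 4.90 against 0.373. Of 33 genes of glycolysis and hypoxia 6 were higher (18.2%, against 7.46%) and 1 lower (3.03%, against 4.13%), with a median of 0.22. Those counts were 4 and 1 of 31 with 1 FPKM or more in both controls. Aldoc, an aldolase, held 43.2 against 3.07 FPKM and Ndrg1, a hypoxia and stress marker, 17.7 against 1.65, and Gapdh was within 2-fold. The core of the hypoxia response element, ACGTGC on either strand, lay in 15 of 28 promoters of this list (53.6%, against 6.68% of the RefSeq promoters). It lay in 9.7% of compared genes with a promoter and in 8.91% of those 2-fold higher.

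Lipid genes leaned higher, with few past 2-fold. Of 24 cholesterol synthesis genes 1 was higher (4.17%, against 7.46% of all compared genes) and 2 lower (8.33%, against 4.13%). Their median was 0.20, and the higher one, Tm7sf2, a sterol reductase, held 8.005 against 2.49 FPKM. Of 16 fatty acid synthesis and LXR genes 2 were higher (12.5%, against 7.46%) and 0 lower, with a median of 0.48. Abcg1, a cholesterol exporter, held 25.4 against 11.1 and Scd1, a desaturase, 94.5 against 44.0 FPKM.

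Organelle genes were close between the controls. Of 29 lysosome and autophagy genes 2 were higher (6.9%, against 7.46% of all compared genes) and 1 lower (3.45%, against 4.13%). Their median was 0.07, and the higher ones were the hydrolases Hexa, at 7.49 against 1.37 FPKM, and Ctsl, at 1.17 against 0.306. Of 33 respiratory chain and ATP synthase genes 1 was higher (3.03%, against 7.46%), Uqcrq, at 536 against 263 FPKM, and 0 lower. Their median was −0.04. Of 7 metallothionein and zinc transport genes 1 was higher (14.3%, against 7.46%) and 1 lower (14.3%, against 4.13%). These were Mt3, at 14.3 against 3.28 FPKM, and the zinc importer Slc39a10, at 1.93 against 7.23.

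Hormone and rhythm genes held a few higher members. Of 8 glucocorticoid targets 4 were higher (50%, against 7.46%) and 0 lower, with a median of 1.01, or 3 of 7 and 0.70 with 1 FPKM or more in both controls: beside Dusp1 and Ddit4 they were Tsc22d3 (GILZ), at 29.6 against 10.7 FPKM, and Klf9, a zinc finger factor, at 27.4 against 10.9. Of 12 clock output genes 2 were higher (16.7%, against 7.46%) and 1 lower (8.33%, against 4.13%). Among them were Bhlhe40, a clock repressor, at 45.1 against 11.6 FPKM, and Clock, at 0.350 against 1.10. Cirbp, a cold-inducible RNA-binding protein, held 17.7 against 6.42 FPKM and the other gene of its list was within 2-fold. Of 18 interferon response genes 2 were higher (11.1%, against 7.46%) and 1 lower (5.56%, against 4.13%), with a median of 0.50. Both shares were near those over all compared genes. Isg15, a ubiquitin-like protein, held 36.3 against 13.3 and the factor Irf1 3.84 against 1.67 FPKM.

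Iron and antioxidant genes had medians below 0, with members past 2-fold in both directions. Slc40a1, which encodes ferroportin, the iron exporter, lies at 45964915 to 45982439 on chromosome 1 in mm9. It held 5.56 FPKM in the CBD-side and 22.6 in the 4-OHT-side control, with 23.7 with CBD and 8.47 with 4-OHT, a ratio of −2.01. Each treated column was near the other table's control, and the authors' deposited tables give it as risen with CBD (q = 3.50e-12) and fallen with 4-OHT (q listed at 0).

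Slc40a1 was the 1 gene 2-fold lower of 15 in iron handling (6.67%, against 4.13% of all compared genes), where the median was −0.41. Hmox1, heme oxygenase, was the 1 gene 2-fold higher (6.67%, against 7.46%), at 32.8 against 15.9 FPKM. Ferritin light chain (Ftl1) held 1295 against 2319 and the transferrin receptor (Tfrc) 123 against 218 FPKM, both within 2-fold. Of 27 NRF2 and antioxidant genes 2 were 2-fold higher (7.41%, against 7.46%) and 4 lower (14.8%, against 4.13%), with a median of −0.41. The higher ones were Hmox1 and Slc7a11, the latter also in the ATF4 list. Beside Nqo1 the lower ones were G6pdx (−1.09, chromosome X), Prdx1 (−1.13, chromosome 4) and Esd (−1.09, chromosome 14). All compared genes on those chromosomes had median ratios of −0.57, −0.24 and −0.60. Nqo1, a quinone reductase and NRF2 target, held 17.6 against 44.4 FPKM, with 53.2 with CBD and 22.4 with 4-OHT.

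The labelled cell type was checked against blood markers. Both controls held the progenitor receptor Kit (85.0 and 95.6 FPKM), Gata1 (183 and 232) and Myb (107 and 112), with Mpo, Elane and S100a8 of granulocytes at or near 0 (at most 0.0662 FPKM). Lists of other cell types summed to 12.5 and 11.04 FPKM for monocytes, 3.31 and 2.35 for lymphoid cells, 5.23 and 3.74 for stroma and 57.8 and 44.8 for neural genes in the CBD-side and 4-OHT-side control, most of the last in Mbp (38.6 and 32.0). The CBD column summed to 422 FPKM over the neural list and the 4-OHT column to 44.9, which touches every value given above for the CBD column, and its part in those was not tested.

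Mast cell and basophil genes split by role, with the roles grouped after values were seen. Of all 19 compared, 4 were 2-fold higher (21.1%, against 7.46% of all compared genes) and 6 lower (31.6%, against 4.13%). The list median was −0.14, and with 1 FPKM or more in both controls 4 of 18 were higher and 5 lower. In bulk samples, fewer cells of a type and less RNA per cell cannot be told apart. Of 9 granule proteases 6 were 2-fold lower in the CBD-side control and 8 had a ratio below 0, with a median of −1.04: Mcpt1 held 1.58 against 11.1 FPKM, Mcpt2 2.51 against 9.11 and Mcpt4 0.271 against 1.61. Of the 9, 5 lie on chromosome 14, whose genes were lower as a whole, and with the chromosome median removed Mcpt1 kept a ratio of −2.14, Mcpt2 of −1.22 and Mcpt4 of −1.60. Of the other 10 compared genes 4 were 2-fold higher and 0 lower. Il4 and Il13, type 2 cytokines, held 77.8 against 14.6 and 10.1 against 2.47 FPKM, Hdc, the histamine-forming enzyme, 294 against 128, and the factor Gata2 113 against 51.3.

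Red cell genes leaned lower in the CBD-side control, with a median of −0.38. Of 17, 5 were at least 2-fold lower (29.4%, against 4.13%) and 2 higher (11.8%, against 7.46%). With 1 FPKM or more in both controls 4 of 16 were lower and 2 higher. Hbb-bh1, an embryonic beta-like globin, held 0.648 FPKM against 11.5, with 0.243 with CBD and 4.89 with 4-OHT, a ratio of −3.96. Hbb-b2, an adult beta globin with near-identical copies, held 526 against 1348 FPKM, Rhag, a red cell membrane protein, 5.94 against 23.2, and Alas2, the erythroid enzyme that starts heme synthesis, 6.34 against 14.8. The erythroid factors Gata1 and Klf1 and the receptor gene Epor were within 2-fold.

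Platelet lineage and granulocyte lists were small. Of 7 megakaryocyte genes 3 were lower (42.9%, against 4.13% of all compared genes) and 0 higher, with a median of −0.57, but with 1 FPKM or more in both controls 1 of 5 was lower, with a median of −0.37: Pf4, a platelet chemokine, held 34.2 against 72.1 FPKM, and Itgb3 and Treml1 were near 1 FPKM or under it. Of 5 granulocyte and myeloid genes 2 were higher (40%, against 7.46%) and 1 lower (20%, against 4.13%), the latter at a ratio of −1.43. With 1 FPKM or more in both controls 1 of 3 was higher and 0 lower. The 2 higher genes were Csf2rb, the shared receptor chain for IL-3 and GM-CSF, at 526 against 223 FPKM, and Ctsg, a granule protease, at 1.64 against 0.599.

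Of 10 stem and progenitor genes 3 were 2-fold higher (30%, against 7.46% of all compared genes) and 1 lower (10%, against 4.13%). The lower gene had a ratio of −1.30. With 1 FPKM or more in both controls 2 of 9 were higher and 1 lower. Meis1, a homeobox factor of stem cells and leukemia, held 5.19 FPKM against 0.591, with 6.24 and 2.14 in the treated columns, a ratio of 2.94, and Runx1 held 92.6 against 38.01. Among the ID genes, the targeted gene Id1 held 34.2 FPKM in the CBD-side and 15.4 in the 4-OHT-side control, a ratio of 1.14, with 11.95 with CBD and 0.741 with 4-OHT. Id2 was lower (4.28 against 10.1 FPKM, ratio −1.22), Id3 higher (5.21 against 2.45, ratio 1.06) and Id4 was listed at 0 in both controls. Tcf4, an E protein that pairs with ID proteins, held 2.41 against 1.002 FPKM.

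The 10 highest and 10 lowest ratios, over genes at 5 FPKM or more in 1 control, were chosen from this same contrast and are given as a description. Kcnab2, a beta subunit of potassium channels, held 50.4 FPKM against 0.333, with 42.1 with CBD and 6.90 with 4-OHT, a ratio of 6.87 that ran from 5.27 to 7.199 over the settings tried. Bmp7, a secreted growth factor, held 15.6 against 0.235, Gem, a small GTPase, 8.30 against 0.118, and Lass4, a ceramide synthase, 5.96 against 0.160 FPKM. The ratios of these 4 genes depend on the added 0.1 FPKM, since their 4-OHT-side values are low.

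The others among the highest were Fos, Egr1, Des (desmin, an intermediate filament of muscle) at 11.1 against 0.552, Skap1, an adaptor of immune cells, at 13.7 against 0.707, Napsa, an aspartic protease, at 15.6 against 0.829, and Anxa2, a membrane-binding protein, at 72.1 against 4.89 FPKM. In all 10 except Egr1 the CBD column also lay above the 4-OHT column, with log2 ratios from 1.04 for Des to 5.85 for Napsa.

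Among the lowest, Wt1, a zinc finger factor of leukemia and kidney, held 1.23 FPKM against 11.7, with 0.523 with CBD and 9.62 with 4-OHT, a ratio of −3.15. Ccnb1ip1, a meiosis gene, held 0.306 against 7.46, Dnajc15, a mitochondrial co-chaperone, 0.367 against 6.76 and Dppa5a, a gene of early embryos, 0.489 against 6.32 FPKM. Sqrdl, which oxidises sulfide, held 1.07 against 8.57 and Grhl2, an epithelial factor, 0.756 against 6.197. Clstn1, a calsyntenin of membranes, held 1.42 against 12.02 FPKM, and Rps27, a ribosomal protein gene with many copies, 9.19 against 73.4. Of the 10 lowest, Clstn1 (10.5 and 6.83 FPKM), Dnajc15 (3.68 and 2.66), Rps27 (72.0 and 63.1) and Mcpt1 (5.30 and 2.94) were higher in the CBD than in the 4-OHT column, and the other 6 were lower.

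The ratio of the controls also followed the chromosomes. On chromosomes 14, X, 13, 5 and 4 the median log2 ratio was −0.60, −0.57, −0.37, −0.35 and −0.24, while the medians of the other 15 chromosomes ran from −0.09 to 0.17. On chromosome 14, 85.5% of 331 genes had a ratio below 0, and on the X chromosome 87.6% of 307. The median on chromosome 14 corresponds to 0.659 of the 4-OHT-side level and that on the X chromosome to 0.672.

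These 5 chromosomes were singled out after their medians were seen, and hold 23.1% of the compared genes and 51.6% of those at least 2-fold lower. At least 2-fold lower were 213 of their 2314 genes (9.2%) and 200 of the 7688 on the other chromosomes (2.6%). At least 2-fold higher were 4.93% and 8.22%.

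**Figure D4:**
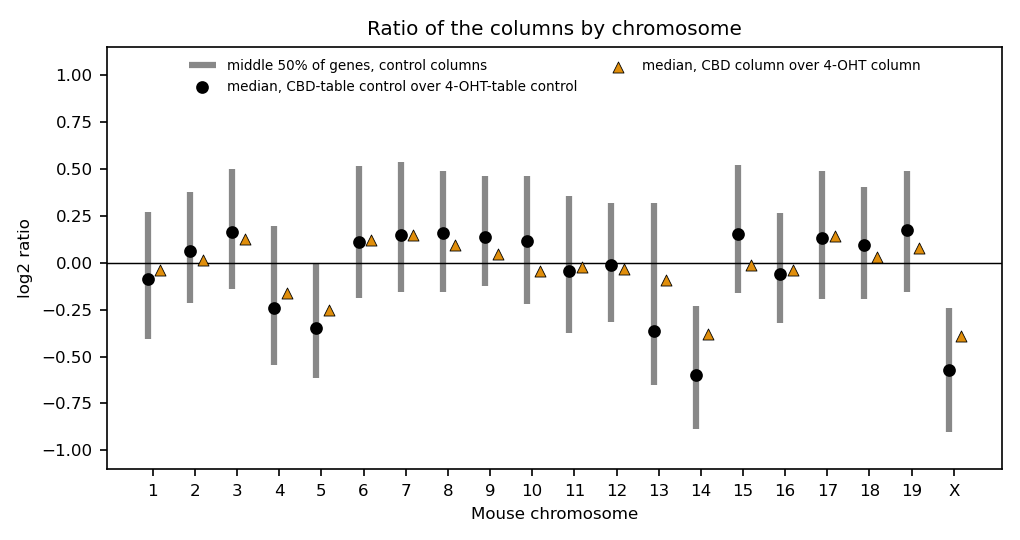
Median log2 ratio of the controls on each chromosome (black points, with grey bars for the middle 50% of genes) and median log2 ratio of the CBD column over the 4-OHT column (orange triangles). Chromosomes 4, 5, 13, 14 and X lie lowest in the controls, and also in the treated columns.

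The shift ran along the whole of chromosomes 14 and X, while on 4, 5 and 13 some stretches lay near 0. In blocks of about 25 neighbouring genes at 5 FPKM or more in both controls, 64 of 64 blocks on these chromosomes had a median below 0 and 48 lay under −0.3. On the other chromosomes 85 of 223 blocks lay below 0 and 1 under −0.3, with 14 of 16 below 0 on chromosome 1, 22 of 26 on chromosome 11 and 8 of 9 on chromosome 16. Blocks of chromosome 14 ran from −0.74 to −0.41 and those of the X chromosome from −0.76 to −0.39. Those of chromosome 4 ran from −0.69 to −0.04, of 5 from −0.56 to −0.06 and of 13 from −0.51 to −0.08. All block medians use the control ratios from which the 5 chromosomes were singled out.

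**Figure D5:**
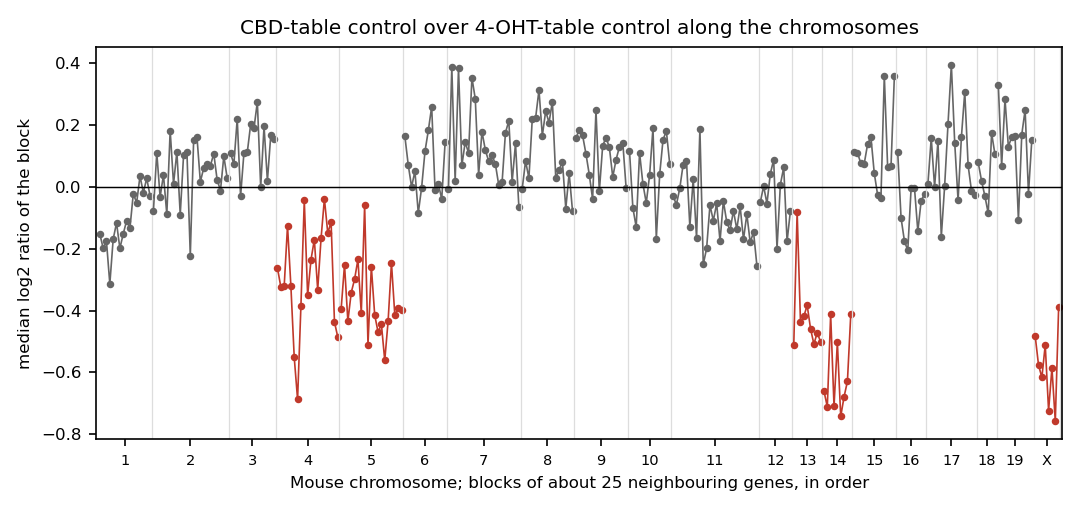
Median log2 ratio of the controls in blocks of about 25 neighbouring genes, in their order along each chromosome, with red for chromosomes 4, 5, 13, 14 and X and grey for the others. All 64 red blocks lie below 0, and the grey blocks lie on both sides of 0, those of chromosomes 1, 11 and 16 mostly below it.

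The treated columns, which the choice did not use, gave smaller values, with all 5 of these chromosomes below the range of the others. The median log2 ratio of the CBD over the 4-OHT column was −0.38 on chromosome 14, −0.39 on X, −0.25 on 5, −0.16 on 4 and −0.09 on 13, and it ran from −0.05 to 0.15 on the others. Within a table the medians by chromosome ran from −0.09 to 0.19 for CBD over its own control and from −0.08 to 0.11 for 4-OHT over its own. Those for CBD were highest on X (0.19), 14 (0.16) and 13 (0.15), with 0.05 on both 4 and 5. Those for 4-OHT were lowest on 5 (−0.08), 13 (−0.05), 14 (−0.04), X (−0.01) and 4 (−0.01). These ratios share the control columns from which the chromosomes were chosen. DNA copy number was not analysed here.

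Xist, the RNA that coats the inactive X chromosome, held 9.46 FPKM against 19.0 in the controls, with 2.84 with CBD and 33.5 with 4-OHT. The Y-linked genes Ddx3y, Eif2s3y, Kdm5d and Uty were at most 0.0179 FPKM in both controls, and Eif2s3y held 0.885 in the CBD column. Of the 34 ATF4 genes 7 lie on chromosomes 4, 5, 13, 14 and X, and of the 19 immediate early genes 3. Of the 27 histone genes, whose median was above 0, 24 lie on these 5 chromosomes.

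Over all compared genes, the difference between the controls was seen again between the treated columns of the same tables, which hold the treatments and the neural signal as well. Of the 746 genes at least 2-fold higher in the CBD-side control, 452 (60.6%) were at least 2-fold higher in the CBD than in the 4-OHT column, against 12.3% of all compared genes, and 652 (87.4%) had a ratio above 0. Of the 413 lower genes 165 (40.0%, against 13% of all compared genes) were at least 2-fold lower there, and 333 (80.6%) had a ratio below 0. Their median log2 ratios in the treated columns were 1.27 and −0.77, against −0.02 over all compared genes.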

How the data were processed

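RNA from AE9a leukemia cells was sequenced, and the authors deposited 2 tables, one for CBD and one for 4-OHT, each with 1 FPKM value per group. Reads were aligned with Bowtie 0.12.2 to mm9 and groups compared with Cuffdiff, per the submitters' processing notes. Not given in the sources used here are the gene annotation, Cuffdiff's version and settings, and the number of libraries in a column. Deposited with the FPKM are the p-value and q-value of the authors' Cuffdiff test of each treatment, used at q under 0.05. The deposited log2 column was not used. FPKM values carry no read counts, so depth is unknown and no interval is given.

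The tables were joined by gene, and log2 ratios were computed with pseudocount 0.1 FPKM in Python 3.11.15 (pandas 2.3.3, numpy 2.4.6, scipy 1.17.1). The tables were scaled separately by the authors: control FPKM totals were 674548 and 675380. With 1 value per column no test was run. The ratio and its counts were tested on simulated data. Gene lists (41) and the contrast were chosen with earlier results of these data known. Some genes are in more than 1 list, so the list counts are not separate observations. Named genes were the 6 markers of the state (Trib3, Ddit3, Nupr1, Egr1, Hsph1, Slc40a1) and Id1 to Id4; the 10 highest and 10 lowest ratios at 5 FPKM or more in 1 control and above 0 in both, without predicted genes, entries of several symbols and small RNAs; up to 4 genes past 2-fold from lists with 25% or more past 2-fold in that direction; and up to 2 from other lists. Further list members, the grouping by role, and the chromosomes shown were chosen after values were seen. Transcript lengths for a check came from GENCODE vM21 for 98.6% of genes; promoters (250 bases before to 50 after the start) came from RefSeq on GRCm38.p6 and matched 7043 compared genes (70.4%). Starts are given counted from 1. Alternatives were other pseudocounts, expression limits, status, scaling, length trend, folds and, added after the data were seen, chromosome settings and leaving out small RNAs.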

Additional observations from a re-analysis of the deposited data

How the results depend on the processing

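Over 11 planned and 3 added settings, none of 105 named genes changed sign, and 20 came back within 2-fold in some setting. Of 36 list medians, 6 changed sign in some setting, all of them within 0.25 of 0 in the main setting. Adding 1 FPKM in place of 0.1 left 256 genes lower and 539 higher. Asking for 10 FPKM or more in either control left 358 higher and 200 lower, with list medians of 0.48 for metallothioneins and zinc transport (main −0.15) and 0.86 for mast cell genes (main −0.14). At 1.5-fold there were 1637 higher and 1361 lower genes, and at 4-fold 194 and 63. Without chromosomes 4, 5, 13, 14 and X there were 632 higher and 200 lower, with list medians of 2.04 for histones and 0.86 for mast cell genes. That setting removes 24 of the 27 compared histone genes, so their median there rests on the few left. Subtracting each chromosome's median gave 754 and 281. The ATF4 median ran from 1.12 to 1.30, the immediate early from 1.18 to 1.85 and the heat shock from −0.58 to −0.31. Median ratios in 20 bins of transcript length ran from −0.12 to −0.01.

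The tables give 1 value per group, so leaving out a replicate gave no value. No paired analysis was possible because the columns carry no replicate numbers. Sequencing depth is unknown, and genes near 1 FPKM limit what a ratio can show: 521 compared genes were under 1 FPKM in one control.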

Other observations

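Of 100 compared small nuclear, nucleolar and micro RNA genes, 21 were at least 2-fold higher in the CBD-side control and 32 at least 2-fold lower, together 53%, against 11.6% of all compared genes. Of the 20 compared genes listed at 0 in one control, 18 were small RNA genes.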
